A study of Mus musculus with 14 samples.

Results

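The 4 arrays described here hold RNA of Control mouse embryo heads at E8.5, the stage of 5 to 7 somites, and are the 4 of 14 arrays that the labels title control. Control heads carry the genotype Twist1flox/+; Mesp1+/+, that is 1 floxed allele of Twist1 beside a normal allele, and no Cre recombinase. Twist1 is the basic helix-loop-helix factor of head mesenchyme whose targets the study sought. The other 10 arrays hold heads of Twist1flox/+; Mesp1Cre/+ embryos (CM-Het, n = 3), Twist1flox/del; Mesp1+/+ embryos (Het, n = 3) and Twist1flox/del; Mesp1Cre/+ embryos (CM-CKO, n = 4). In these lines Cre stands at the Mesp1 locus, which is active in early mesoderm, so the recombined cells include mesoderm outside the head. All 14 samples share the mixed strain background C57Bl/6 x 129 x BALB/c, and every embryo carries at least 1 floxed allele of Twist1, so no array holds wild-type heads. The labels do not say whether a sample is 1 head or a pool, and the spread between arrays may therefore be partly technical.

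At this stage the neural plate of the mouse head is closing into a tube that is already divided into forebrain, midbrain and hindbrain territories by transcription factors such as OTX2, GBX2 and the EGR and HOX proteins. Neural crest cells leave its dorsal edge and mix with mesoderm-derived mesenchyme under the surface ectoderm, while the first vessels form around them. The linear heart tube, the foregut and the yolk sac lie directly against the head, and primitive blood cells from the yolk sac begin to circulate.

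Each array is an Illumina bead array with 45281 probes, of which 34885 have 1 gene symbol. Signals were background corrected and quantile normalized to a log2 scale, and the brightest probe stood for each of 19057 genes. A probe was above background on an array when its detection p, which sets its intensity against the negative control beads of that array, was under 0.05. The deposited p-values were first put back on the rows of their intensities. On the Control arrays 18242 to 19455 probes were above background (40.3% to 43%), against 18460 to 19375 on the other arrays. Pairs of Control arrays had a Spearman correlation of 0.888 to 0.903 and, on the normalized log2 scale, a Pearson correlation of 0.9907 to 0.9938 over all probes, with a median difference of 0.149 to 0.18 log2 units, and 0 probes of identical intensity. A gene was called strong when it was above background on 4 of 4 Control arrays with a mean in the top 10% of all probes, intermediate when above background on 4 of 4 but below that limit, weak when above background on 1 to 3 arrays, and otherwise not above background. Of the 19057 genes 3184 were strong (16.7%), 6192 intermediate (32.5%), 2538 weak (13.3%) and 7143 not above background (37.5%), so 49.2% were above background on 4 of 4 arrays. Ranks count all probes from the brightest and describe probe signal. Probes bind with different strength, so a rank is no measure of how one transcript compares with another, and a gene whose probe was not above background may still be expressed. Of 9172 genes with several probes, 5699 (62.1%) had probes in different classes.

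Twist1 was strong in all 4 Control heads. Its log2 signal was 9.55, 9.17, 9.13 and 9.41 on Control 1 to 4, a mean of 9.32 ± 0.20 (SD, n = 4) at rank 8.83% of all probes. Control 1 read highest and Control 3 lowest, and no array was near background.

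Control 1, and for heart markers Control 3 as well, stood apart from the other Control arrays. The mean signal over the heart muscle markers was 8.74 on Control 1 and 8.36 on Control 3, against 6.76 on Control 2 and 6.56 on Control 4. The mean over the yolk sac endoderm markers was 7.01 on Control 1 and 5.60 to 5.88 on the other 3 arrays. Among the sex-linked genes, Xist, the RNA that silences an X chromosome in female cells, was above background on 4 of 4 arrays, with 10.39, 9.52, 10.46 and 9.42. Eif2s3y, a translation factor gene of the Y chromosome, read 6.71, 8.09, 4.31 and 8.01 and was above background on every array but Control 3. Kdm5d, a Y-linked histone demethylase, read 5.45, 5.77, 4.32 and 6.58, with the same array at background. Uty, the Y-linked relative of Kdm6a, was above background on 4 of 4 arrays at 5.27 ± 0.17. Signal of Xist and of this Eif2s3y probe was therefore present together on Control 1, 2 and 4. The other probe of Eif2s3y, at 4.23 to 4.55, was not above background on any array. Without Control 1 and 3, the arrays of high heart signal, 9615 genes were above background on both remaining arrays against 9376 on 4 of 4. This count can only stay or rise when fewer arrays are required, so it does not measure the effect of those arrays.

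The strongest signals came from genes of protein synthesis, chromatin and the cytoskeleton. The 20 genes of highest mean ran from Rplp1, a protein of the ribosomal stalk, at 13.94 ± 0.03 to Mdk, the growth factor midkine, at 13.70 ± 0.01. They included 9 cytosolic ribosomal proteins (Rplp1, Rps4x, Rps9, Rpl9, Rps2, Rpl27, Rpl41, Rps14 and Rps7), the elongation factor Eef1a1, the tubulins Tuba1b and Tubb5, the RNA-binding proteins Ybx1 and Hnrnpc, the ATP synthase subunits Atp5b and Atp5g3, and the histones H2ac10, H2ac24 and H2ac20. Over the whole array 48 of 56 measured ribosomal protein genes were above background on 4 of 4 arrays, and 35 of them were among the 100 strongest genes. The histone and ribosomal protein families hold near-identical copies and pseudogenes, and a probe may bind several of them. Mdk was the secreted factor among the 20, and its 4 readings lay between 13.69 and 13.72.

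Most genes of glucose metabolism and of cell division were strong. Of 15 measured genes of glycolysis and glucose uptake 14 were above background on 4 of 4 arrays and 10 were strong, with a list median of 12.85 against 4.98 for all genes. Ldha, the lactate dehydrogenase subunit that turns pyruvate to lactate, read 13.62 ± 0.12, and Pkm, Tpi1 and Gapdh, which encode enzymes of the lower pathway, read 13.59 ± 0.10, 13.57 ± 0.04 and 13.50 ± 0.07. The glucose transporters Slc2a1 and Slc2a3 were strong too, while Ldhb was above background on 1 array. Of 21 measured cell division genes 17 were above background and 14 strong, led by the replication helicase subunit Mcm5 (12.69 ± 0.07), the cyclin Ccnd2 (12.01 ± 0.19), the anaphase activator Cdc20 (11.96 ± 0.11) and Mcm6 (11.82 ± 0.17). The probes of Ccnb2 and Bub1, which dividing cells use, were not above background on any array.

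Growth regulators of the early embryo were also strong. Of 10 oncofetal genes, expressed in embryos and often again in tumours, 9 were above background and 6 strong, including the mRNA-binding proteins Igf2bp3 (12.49 ± 0.07) and Igf2bp1 (12.09 ± 0.07), the ubiquitin ligase Trim71 (10.87 ± 0.12) and the chromatin factor Arid3b (10.77 ± 0.17). Lin28a, which blocks let-7 maturation, was strong, whereas the probe of Mycn was not above background. Of 18 imprinted genes 13 were above background and 11 strong. Igf2, the paternally expressed growth factor, read 13.72, 13.57, 13.70 and 13.65 on Control 1 to 4, followed in the list by the receptor adaptor Grb10 (13.29 ± 0.07), Mest (12.40 ± 0.19) and the cell cycle inhibitor Cdkn1c (12.09 ± 0.39). Meg3 and Plagl1 were not above background. In the IGF pathway 9 of 13 genes were above background and 6 strong: Igfbp5 read 12.18 ± 0.16, Igfbp4 10.84 ± 0.12 and Igfbp2 9.87 ± 0.15, all 3 being secreted binding proteins, and the receptors Igf1r and Igf2r were strong as well.

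**Figure D1:**
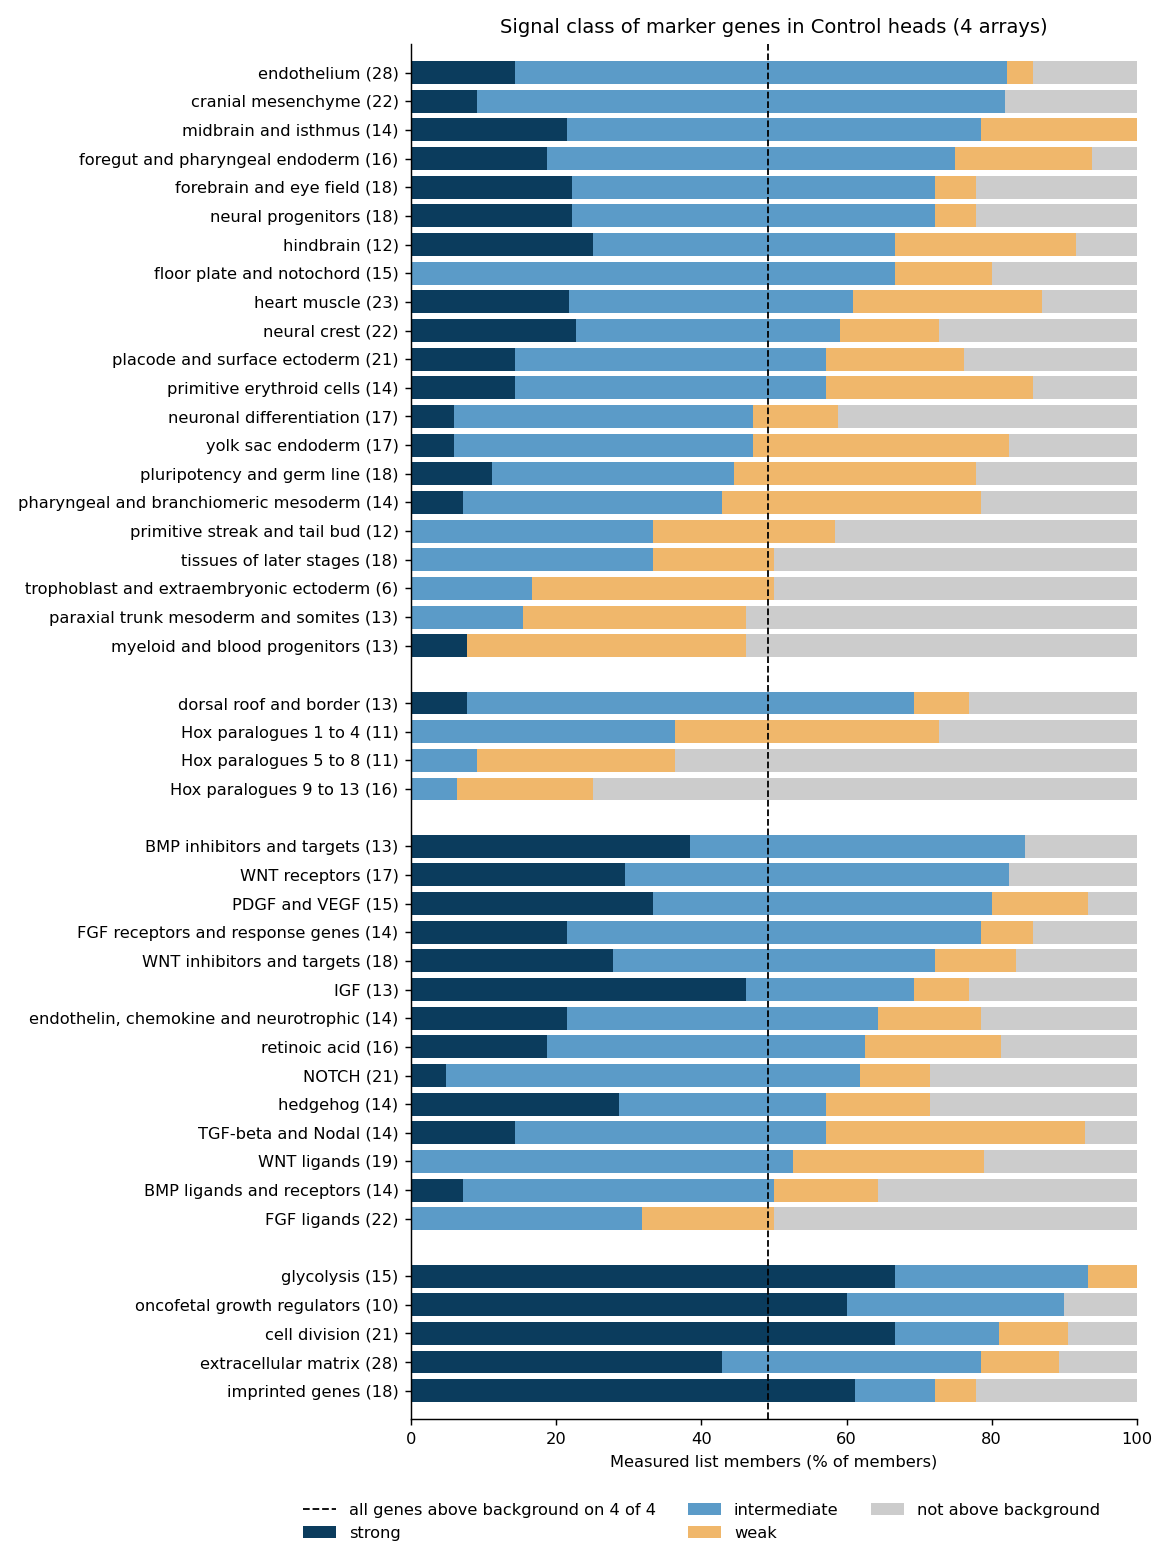
Stacked bars give the percent of measured members of each marker list in each signal class over the 4 Control arrays, with the number measured in brackets. The dashed line marks the 49.2% of all genes above background on 4 of 4 arrays; glycolysis lies well to its right and the Hox lists of paralogues 5 to 13 well to its left.

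Regional factors of the anterior neural plate were detected over most of their list. Of 18 measured forebrain and eye field genes 13 were above background on 4 of 4 arrays (72.2%, against 49.2% of all genes) and 4 were strong (all genes, 16.7%). Otx2, the homeobox factor required for forebrain and midbrain, read 11.15, 11.36, 11.39 and 11.47. Tcf7l1, a repressor of WNT targets in the anterior plate, read 11.27 ± 0.11, Otx1 11.03 ± 0.29 and the zinc-finger repressor Fezf1 10.46 ± 0.16. The eye field factors Rax, Six3 and Lhx2 and the forebrain factors Hesx1, Fezf2, Foxd1, Vax1, Lhx5 and Sp8 were intermediate. Pax6 was above background on 1 array, and the factors Emx1, Emx2, Six6 and Barhl2, known mainly from the later forebrain and eye, were not above background on any.

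Around the midbrain and the isthmus, the organizer at the midbrain-hindbrain boundary, 11 of 14 genes were above background and 3 were strong. En1, the homeobox factor of that territory, read 10.90, 11.39, 11.28 and 11.22. Gbx2, which sets the hindbrain side of the boundary, read 10.71 ± 0.14, and Sp5, a WNT-responsive zinc-finger factor, 10.38 ± 0.17. The organizer signals Fgf8, Fgf15, Fgf17 and Wnt1 and the second engrailed gene En2 were intermediate. The paired-box genes Pax2 and Pax5 were weak, above background on 2 arrays and 1 array, while Pax8 was intermediate. No member of the list lacked signal on all 4 arrays.

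In the hindbrain list 8 of 12 measured genes were above background and 3 were strong. Irx3, an Iroquois homeobox factor, read 11.69 ± 0.18, and the HOX cofactors Meis2 and Meis1 read 11.27 ± 0.16 and 9.79 ± 0.45. Egr2, a zinc-finger factor of alternating rhombomeres, was intermediate at 8.54 ± 0.36. Epha4 was weak and Gbx1 was not above background. These genes are not all particular to the hindbrain, since Irx3, Meis1 and Meis2 are used widely.

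Fewer Hox genes were above background at higher paralogue numbers, which in the embryo run from the most anterior to the most posterior expression. Of 11 measured genes of paralogues 1 to 4, 4 were above background on 4 of 4 arrays, against 1 of 11 for paralogues 5 to 8 and 1 of 16 for paralogues 9 to 13, where 12 were not above background on any array. Hoxb2 read 8.43, 7.49, 7.86 and 7.91, Hoxa2 7.86, 7.5, 7.59 and 8.31, and Hoxb1 7.61, 6.61, 7.00 and 7.47. These genes mark rhombomeres of the hindbrain and the crest that leaves them. Hoxd3, the last of the 4, read 6.84, 5.24, 6.15 and 5.67, with Control 1 highest. Hoxd4, above background on 2 arrays, read 6.67 on Control 1 and 5.62 on Control 3, and 4.34 and 4.37 on Control 2 and 4, the same split as the heart markers. Hoxb5 was intermediate at 5.45 ± 0.58. The exception among the posterior genes was Hoxa13, above background on 4 of 4 arrays at 5.40 to 5.71. With a detection p under 0.01 none of the 11 genes of paralogues 5 to 8 stayed above background.

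**Figure D2:**
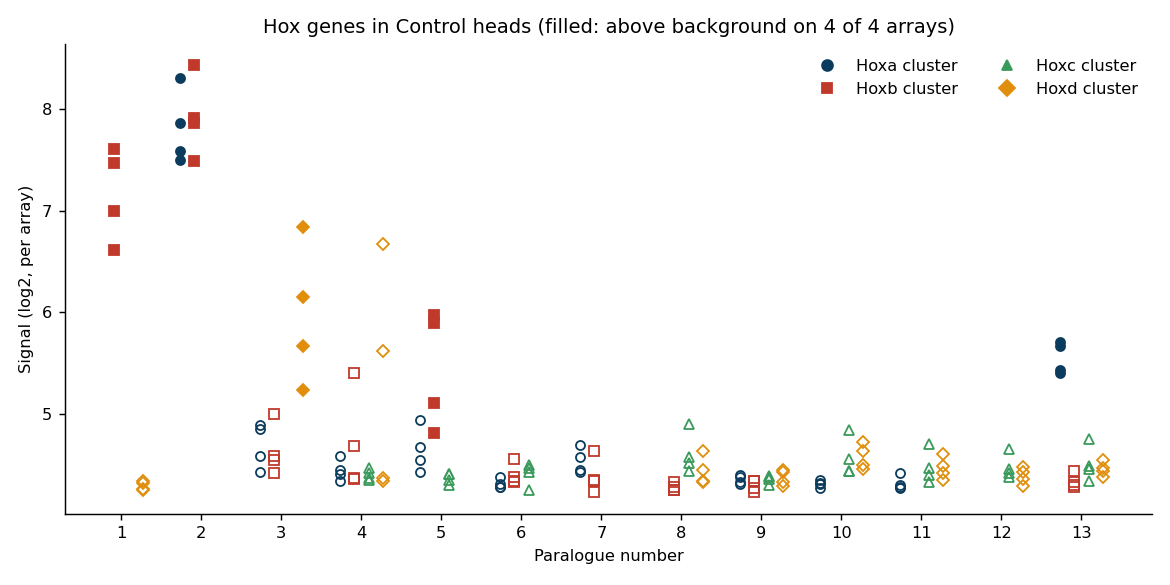
Each symbol is the log2 signal of a Hox gene on 1 Control array, placed by paralogue number, with the cluster shown by shape and colour; filled symbols mark genes above background on 4 of 4 arrays. Hoxb1, Hoxa2 and Hoxb2 have the highest symbols, and from paralogue 6 onward the only filled ones are those of Hoxa13.

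Of 18 measured progenitor genes 13 were above background and 4 strong: Sox11, a SoxC factor, read 12.33 ± 0.05, Sox21 11.20 ± 0.19, Lin28a 10.51 ± 0.16 and Pou3f1, a POU factor of the neural plate, 9.36 ± 0.19. Sox2, Sox3, Nes, Ncam1, Hes3, Hes5, Zic1, Zic2 and Msi1 were intermediate, Sox1 was weak, and Fabp7, a gene of later radial glia, was not above background. The probe of Cdh2, the cadherin of the neural plate, was not above background either. Of 17 measured genes of neuronal differentiation 8 were above background and 1 was strong, close to the 49.2% of all genes. That gene was Isl1 (9.54 ± 0.13), which is also a gene of pharyngeal mesoderm. Stmn2 (8.80 ± 0.31), Map2 (8.21 ± 0.19) and Rbfox3 (7.43 ± 0.20) were intermediate, as were Pou4f1, Syn1, Elavl3 and the proneural factor Neurog2. Neurog1, Neurog3, Neurod1, Elavl4, Dll3, Snap25 and Tubb3 were not above background on any array, and Dcx and Neurod4 on 1 array each.

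Ventral and dorsal midline genes were intermediate for the most part. In the floor plate and notochord list 10 of 15 genes were above background and 0 were strong. Nkx6-1, a ventral homeobox factor, read 8.38 ± 0.17, the morphogen Shh 8.35 ± 0.14, Foxa1 7.63 ± 0.22 and the prechordal plate gene Gsc 6.90 ± 0.21. Foxa2, Chrd, Nog, Nkx2-2, Nkx2-9 and Nkx6-2 were intermediate as well, while Olig2, Sim1 and Noto were not above background. On the dorsal side 9 of 13 genes were above background and 1 was strong, Msx1 at 9.46 ± 0.13. The roof plate signals Bmp4 (8.36 ± 0.13), Bmp7 (7.89 ± 0.11) and Wnt3a (7.47 ± 0.16) were intermediate, as were Wnt1 and Lmx1a.

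Neural crest genes ranged from strong to undetected. Of 22 measured genes 13 were above background and 5 strong. Sox9, a SoxE factor of crest and cartilage, read 11.79, 11.93, 11.76 and 11.78. Crabp1, a retinoid-binding protein of crest and hindbrain, read 10.25 ± 0.24, Ets1 9.68 ± 0.19 and Msx1 9.46 ± 0.13, and Tfap2a, a factor of crest induction, was strong too. Sox10, the SoxE factor of migrating crest, was intermediate, and so were Snai1, Snai2, Tfap2b, Cdh6, Ngfr, Rxrg and Dlx2. Pax3, Cdh11 and Sox8 were weak. Foxd3, Pax7, Erbb3, Msx2, Dlx1 and Mitf were not above background on any array, although Foxd3 is known as an early crest gene.

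In surface ectoderm and placodes 12 of 21 genes were above background and 3 were strong. Krt8 and Krt18, the keratins of simple epithelia, read 11.22 ± 0.28 and 9.59 ± 0.18, Tfap2c 9.06 ± 0.08 and the epithelial cadherin Cdh1 8.48 ± 0.14. Foxi2, Grhl2, Grhl3, Eya1, Six4, Gata3, Dlx6 and Krt19 were intermediate. Krt5, a keratin of stratified epithelia, was not above background, and neither was the probe of the simple epithelial gene Epcam. The mean over this list varied by 0.06 log2 units between Control arrays.

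Head mesenchyme was among the most completely detected lineages. Of 22 measured genes 18 were above background on 4 of 4 arrays (81.8%, against 49.2% of all genes), with none in the weak class. Only 2 were strong, beside 16.7% of all genes. Besides Twist1 the strong gene was Pdgfra, the receptor of mesenchyme and crest, with 9.79, 9.0, 9.29 and 9.02 on Control 1 to 4. The zinc-finger repressors Zeb1 (8.79 ± 0.11) and Zeb2, the intermediate filament gene Vim (8.77 ± 0.15), and Foxc1, Foxc2, Ebf1, Ebf2, Ebf3, Alx1, Alx4, Prrx1, Twist2, Tcf15, Pdgfrb, Lum and Cd248 were intermediate. Mesp1, a gene of early mesoderm, and its relative Mesp2 were not above background, nor were Tbx15 and Tbx18. The mean over the 18 genes was 7.61 on Control 1 and 7.35, 7.35 and 7.39 on Control 2 to 4, above the highest of the other 10 arrays, 7.18. That mean includes Twist1, which the other genotypes alter by design. The CM-Het and Het arrays also lie on beadchip 1 and the Control arrays on beadchip 2, so genotype and beadchip cannot be told apart between them.

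Pharyngeal mesoderm was covered in part, and trunk mesoderm hardly. Of 14 measured genes of pharyngeal and branchiomeric mesoderm 6 were above background (42.9%, against 49.2% of all genes). Among them were Isl1, the T-box factor Tbx1 (8.23 ± 0.20), Fgf10 (7.82 ± 0.18) and the cardiac and pharyngeal factor Nkx2-5 (7.52 ± 0.38). The muscle determination genes Myf5 and Myf6 were not above background, and Myod1 and Myog were weak. Of 13 measured genes of trunk paraxial mesoderm and somites 2 were above background on 4 of 4 arrays, against 49.2% of all genes, and 7 were not above background on any. Dll1, a NOTCH ligand of presomitic mesoderm and neural cells, read 6.33 ± 0.09. Meox1, a homeobox gene of somites, read 9.10, 5.35, 8.11 and 6.79, high on Control 1 and 3. Pax1, Pax9, Lfng, Hes7 and Meox2 were not above background. Of 12 genes of the primitive streak and tail bud 4 were above background, namely Sp8 (8.43 ± 0.20), Cyp26a1 (7.78 ± 0.15), Wnt3a and Evx1 (6.02 ± 0.15), of which Sp8, Cyp26a1 and Wnt3a are also head genes. Eomes, Mixl1, Cdx1 and Cdx4 were not above background.

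Endothelial genes were above background over most of their list. Of 28 genes 23 were above background (82.1%, against 49.2% of all genes) and 4 strong (all genes, 16.7%). Egfl7, a secreted protein of vessels, read 11.34, 11.34, 11.36 and 11.18, Ramp2, an adrenomedullin receptor subunit, 10.36 ± 0.18, Etv2, the ETS factor of endothelial and blood progenitors, 9.62 ± 0.17, and the junction protein Esam 9.11 ± 0.10. Flt1, Tek, Cdh5, Pecam1, Emcn, Sox7, Sox17, Sox18, Aplnr and Cldn5 were intermediate. Kdr, the main VEGF receptor of endothelium, was above background on 3 arrays, and Dll4, Erg, Apln and Lyve1 on none.

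Of 14 measured genes of primitive red cells 8 were above background and 2 were strong. Tfrc, the transferrin receptor, read 10.99 ± 0.16 and is used by all dividing cells. Hba-a1, the alpha globin gene, read 8.01, 10.42, 8.87 and 9.41, and Lmo2, a cofactor of blood and vessel formation, 9.03 ± 0.20. The embryonic beta-like globin Hbb-bh1 read 7.95, 6.96, 8.41 and 8.95, so the order of the arrays differed between the globins. The embryonic alpha-like globin Hba-x read 6.49, 6.15, 7.11 and 8.0, highest on Control 4 as Hbb-bh1 was; it is named, outside the rule for named genes, for its promoter. Globin genes are near-identical within their clusters and may share signal. White blood cell genes were hardly seen: of 13 myeloid and progenitor genes 1, the receptor gene Kit (9.54 ± 0.11), was above background on 4 of 4 arrays, and Spi1, Itgam, Mpo, Runx1, Cx3cr1, Tyrobp and Fcer1g were not above background on any. Kit is also expressed outside blood.

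Foregut and pharyngeal endoderm gave 12 of 16 genes above background and 3 strong. The tight junction gene Cldn6 read 10.82 ± 0.11 and the hormone precursor Trh 9.09 ± 0.27. The protease inhibitor Spink1 read 11.57, 10.32, 11.04 and 9.67, again higher on Control 1 and 3. Nkx2-3 (8.99 ± 0.16), Hhex, Foxa1, Foxa2, Foxa3, Sox17, Pyy, Ripply3 and Nkx2-6 were intermediate, and Pax9 was not above background. Of 17 yolk sac endoderm genes 8 were above background (47.1%, against 49.2% of all genes). The endocytic receptor Lrp2, which the neural plate also expresses, read 10.30 ± 0.17. Ttr, the thyroid hormone carrier of visceral endoderm, read 10.32, 6.55, 8.49 and 6.11, Apoa1 8.72, 5.60, 6.22 and 5.92, and the cubilin partner Amn 7.81, 6.02, 6.13 and 6.11. In each of these 3 Control 1 was highest. Afp was above background on 2 arrays, and Apoa4, Fga and Fgb on none.

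Genes of the early embryo and of later tissues were detected in part. Of 18 pluripotency and germ line genes 8 were above background (44.4%, against 49.2% of all genes). The 2 strong ones (all genes, 16.7%) were the DNA methyltransferase Dnmt3b (12.90 ± 0.14) and the zinc-finger factor Sall4 (11.73 ± 0.12), both known from pluripotent epiblast. Pou5f1 read 7.25, 8.19, 6.60 and 7.5, lowest on Control 3. Dppa5a (5.86 ± 0.13) and Nanog were intermediate, and Dppa3, Dppa4, Utf1 and Nanos3 were not above background. Of 6 measured trophoblast genes 1 was above background on 4 of 4 arrays, Plac1 at 6.03 ± 0.15. Of 18 genes of tissues that form later 6 were above background and 9 were not on any array, among them Alb, Gfap, Ins2, Ckm, Sftpc and Umod. The 6 included the keratin Krt10 (8.69 ± 0.08), the skeletal actin Acta1, the myelin gene Mbp (7.42 ± 0.10) and the bone factor Sp7 (6.92 ± 0.16). Signal above background was thus also measured for 33.3% of the genes chosen as markers of tissues not yet formed, against 49.2% of all genes. Acta1, among them, split between the arrays as the heart markers did.

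Among signalling genes, no FGF or WNT ligand was in the strong class. Of 22 FGF ligands 7 were above background and 0 strong: Fgf13 (8.90 ± 0.11), which acts inside cells, Fgf15 (8.84 ± 0.27), Fgf8 with 8.74, 8.74, 8.73 and 9.04, Fgf10, Fgf17, Fgf22 and Fgf5. Of 14 FGF receptors and response genes 11 were above background and 3 strong. The ERK phosphatase Dusp6, a feedback target of FGF, read 11.16 ± 0.17, highest on Control 4 at 11.36, the receptor Fgfr2 10.81 ± 0.16 and the inhibitor Spred1 9.99 ± 0.09, while the FGF inhibitor Il17rd (8.35 ± 0.28), Etv4, Etv5 and Fgfr1 were intermediate. Fgfr4 and Spry2 were not above background.

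For WNT, 10 of 19 ligands were above background (52.6%, against 49.2% of all genes) and 0 strong. Wnt5a, which acts mostly outside beta-catenin, read 8.77, 8.39, 8.69 and 8.52, Wnt3a 7.47 ± 0.16, Wnt5b 6.99 ± 0.19 and Wnt6 6.96 ± 0.15. Wnt2 read 8.83, 5.39, 8.23 and 5.22 and so followed the heart markers across the arrays. Of 17 receptors 14 were above background and 5 strong: Ryk (10.97 ± 0.08), Fzd5 (10.72 ± 0.16), Fzd7 (10.71 ± 0.24), Ror2 (9.67 ± 0.18) and Fzd2. Of 18 inhibitors and targets 13 were above background and 5 strong, with the secreted inhibitor Sfrp1 at 11.28 ± 0.27, Tcf7l1, the trafficking inhibitor Shisa2 at 10.46 ± 0.22, the feedback target Axin2 at 10.38 ± 0.14, and Sp5. Dkk1 was intermediate, and Dkk2, Dkk4 and Sfrp4 were not above background.

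In BMP signalling 7 of 14 ligands and receptors were above background and 1, the receptor Bmpr1a (9.68 ± 0.19), was strong. The receptor Bmpr2 read 9.0 ± 0.05. Bmp2, Bmp6, Bmp10, Gdf6 and Gdf11 were not above background. Among inhibitors and targets 11 of 13 were above background and 5 strong. Twsg1, an extracellular BMP modulator, read 11.16 ± 0.07, the target Id1 10.16 ± 0.10, Id2 9.69 ± 0.24 and the activin and BMP antagonist Fst 9.58 ± 0.25. Of 14 TGF-beta and Nodal genes 8 were above background and 2 strong, both receptors: Acvr2b (12.75 ± 0.05) and Tgfbr1 (11.74 ± 0.08). Tgfbi (8.36 ± 0.12), a matrix protein, and Tgfbr3 (7.97 ± 0.24) followed in the list. Nodal, Lefty1 and Tdgf1, genes of the earlier embryo, were weak.

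Of 14 hedgehog genes 8 were above background and 4 strong: the transcription factor Gli3 (11.55 ± 0.04), the transducer Smo (10.24 ± 0.18), Gli2 (10.23 ± 0.09) and the receptor Ptch1 (9.20 ± 0.18). Shh was intermediate, Dhh not above background and Ihh weak. The probes of Gli1, Boc and Gas1 were not above background. Of 21 NOTCH genes 13 were above background and 1 strong, the target Hey1 at 9.14 ± 0.11. Hes1 (9.02 ± 0.21), Notch3 (8.69 ± 0.22) and the feedback inhibitor Nrarp (7.99 ± 0.19) were intermediate. The probe of Rbpj, the pathway's DNA-binding protein, was not above background.

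Of 16 retinoic acid genes 10 were above background and 3 strong: the binding proteins Crabp1 and Crabp2 (10.16 ± 0.17) and the receptor Rxrb (9.98 ± 0.12). The degrading enzyme Cyp26a1 was intermediate. So was the synthesizing enzyme Aldh1a2, while Aldh1a1, Cyp26b1 and Dhrs3 were not above background. In PDGF and VEGF signalling 12 of 15 genes were above background and 5 strong, namely Vegfb (10.90 ± 0.04), Pdgfa (10.53 ± 0.13), the coreceptor Nrp1 (9.29 ± 0.63), Pdgfra and Vegfa. Among endothelin, chemokine and neurotrophic genes 9 of 14 were above background. The chemokine Cxcl12 read 9.61 ± 0.25 and its receptor Cxcr4 8.84 ± 0.14, and the endothelin-converting enzyme Ece1 9.44 ± 0.28. Edn2, Edn3 and Kitl were not above background.

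Of 28 extracellular matrix genes 22 were above background and 12 strong, and 6 of those 12 encode basement membrane proteins (Col4a1, Col4a2, Hspg2, Nid2, Lamc1 and Lama1). The type IV collagen Col4a1 read 11.58, 11.31, 11.17 and 11.15, Fbln1 10.81 ± 0.02, the cartilage and notochord collagen Col2a1 10.07 ± 0.20 and Sparc 10.01 ± 0.25. Fibronectin (Fn1), the hyaluronan synthase Has2 and Col5a1 were strong as well. The fibrillar collagens Col1a1 and Col1a2 were weak, and Col3a1, Col5a2 and Postn were not above background.

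Promoter sequence was set beside the signal classes as a property the rule did not use. The RefSeq promoter table (GRCm38.p6) holds 250 bases before to 50 after the start of a gene, and 12630 of the 19057 genes have exactly 1 entry in it. The median ratio of observed to expected CpG was 0.84 for strong genes, 0.77 for intermediate, 0.45 for weak and 0.26 for genes not above background, against 0.62 for all. The TATA motif TATAAA on the sense strand, 40 to 15 bases before the start, was present in 1.21% of strong promoters, 4.88% of those not above background and 3.00% of all. A GC box, GGGCGG on either strand, was present in 69.5% of strong promoters, 26.9% of those not above background and 49.4% of all, and its letters contain a CpG. Of 14 cell division promoters 92.9% held CCAAT on either strand, against 39.1% of all promoters. The share was also above that of all promoters for heart muscle (64.3%), midbrain and isthmus (55.6%), forebrain and eye field (54.5%) and glycolysis (44.4%). It was 18.2% for yolk sac endoderm. The 14 heart muscle promoters had a median CpG ratio of 0.27 and the 11 yolk sac promoters 0.34. These are descriptions of letters in a window, and genes are not independent replicates.

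**Figure D3:**
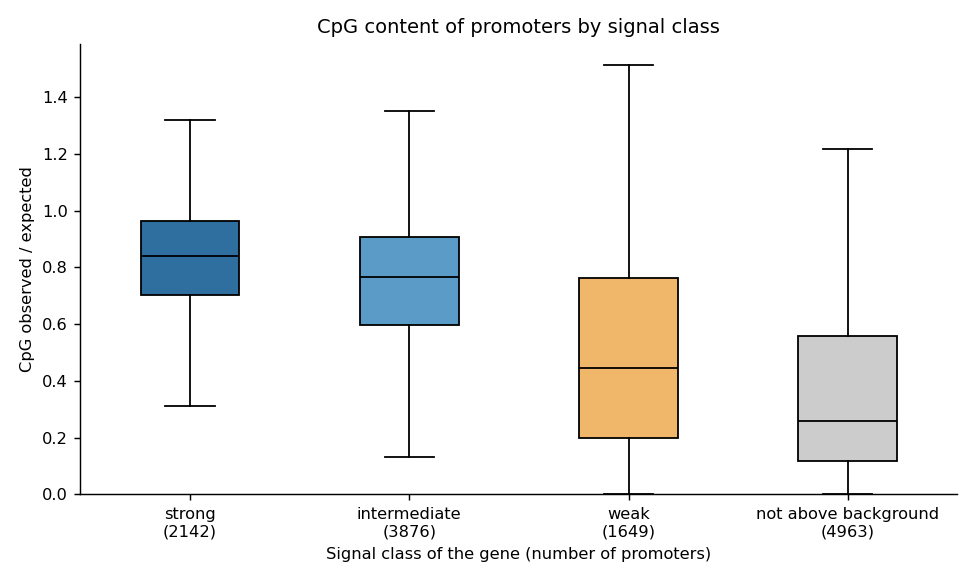
Boxes give the median and quartiles of the CpG observed to expected ratio of promoters by signal class in Control heads, with whiskers to 1.5 times the quartile range and the number of promoters in brackets. The median falls from 0.84 in the strong class to 0.26 among genes not above background.

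The promoters of 5 genes are printed to show CpG-rich and CpG-poor windows, and single genes need not follow the class medians. Twist1 and Mcm5 were strong and even between arrays, Myl7 was strong but uneven, Hba-x was intermediate, and Alb, the albumin gene of the later liver, was not above background. Their coordinates in GRCm38.p6 are chr12:33957421-33957720 (plus strand) for Twist1, chr8:75109259-75109558 (plus strand) for Mcm5, chr11:5898733-5899032 (minus strand) for Myl7, chr11:32276350-32276649 (plus strand) for Hba-x and chr5:90460620-90460919 (plus strand) for Alb. Each sequence runs 5′ to 3′ in the direction of its gene, and capitals mark each CpG.
Twist1: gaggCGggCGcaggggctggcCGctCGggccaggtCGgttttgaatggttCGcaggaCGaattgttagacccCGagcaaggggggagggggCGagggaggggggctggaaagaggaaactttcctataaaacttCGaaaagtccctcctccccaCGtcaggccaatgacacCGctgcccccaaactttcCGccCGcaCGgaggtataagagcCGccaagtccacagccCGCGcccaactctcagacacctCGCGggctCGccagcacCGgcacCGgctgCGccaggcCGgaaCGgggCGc
Mcm5: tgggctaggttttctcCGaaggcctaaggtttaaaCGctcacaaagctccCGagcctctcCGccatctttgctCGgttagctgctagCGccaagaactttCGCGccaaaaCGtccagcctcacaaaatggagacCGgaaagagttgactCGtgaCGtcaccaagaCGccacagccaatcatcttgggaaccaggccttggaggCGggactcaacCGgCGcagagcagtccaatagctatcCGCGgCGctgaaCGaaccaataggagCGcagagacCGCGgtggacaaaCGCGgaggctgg
Myl7: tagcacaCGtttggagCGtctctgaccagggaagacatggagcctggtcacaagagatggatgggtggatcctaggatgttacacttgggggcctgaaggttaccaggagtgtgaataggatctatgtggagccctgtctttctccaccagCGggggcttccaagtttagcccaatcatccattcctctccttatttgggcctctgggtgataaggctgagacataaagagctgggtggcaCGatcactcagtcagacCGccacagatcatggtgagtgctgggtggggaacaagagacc
Hba-x: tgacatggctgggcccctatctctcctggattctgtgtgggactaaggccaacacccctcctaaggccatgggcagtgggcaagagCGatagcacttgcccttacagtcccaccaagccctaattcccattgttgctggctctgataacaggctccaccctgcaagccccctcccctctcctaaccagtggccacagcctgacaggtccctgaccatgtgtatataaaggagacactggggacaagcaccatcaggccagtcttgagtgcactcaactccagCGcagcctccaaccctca
Alb: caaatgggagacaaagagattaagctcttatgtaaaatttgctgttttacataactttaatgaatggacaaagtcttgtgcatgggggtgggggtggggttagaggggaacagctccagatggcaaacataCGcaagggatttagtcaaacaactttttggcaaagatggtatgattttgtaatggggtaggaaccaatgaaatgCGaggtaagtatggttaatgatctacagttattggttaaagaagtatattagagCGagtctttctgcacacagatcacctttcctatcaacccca
The Twist1 window holds 27 CpG and the Mcm5 window 25, against 5 for Myl7, 2 for Hba-x and 3 for Alb. The observed to expected ratios were 0.83 for Twist1, 1.00 for Mcm5, 0.24 for Myl7, 0.09 for Hba-x and 0.27 for Alb, so the strong Myl7 and the intermediate Hba-x lay below Alb, which was not above background. TATAAA starts 28 bases before the start of Hba-x and is not in the searched part of the other 4.

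The spread between Control arrays was small for most genes. The median SD over the 9376 genes above background on 4 of 4 arrays was 0.14 log2 units, with quartiles of 0.09 and 0.21, and 177 genes (1.89%) had an SD over 0.5. The median SD within the other genotypes was also 0.14. Over genes, the Control SD correlated with the SD within the other genotypes (Spearman 0.51, over genes of the same arrays and normalization). Of the 177 genes, 81 (45.8%) also had an SD over 0.5 within the other genotypes, and Adamts9 was not among them. Nppa, above background on 2 Control arrays, is not one of the 177. Its SD was 1.76 over Control arrays and 0.37 within the other genotypes. Of the 177 genes, 100 had both Control 1 and 3 above both Control 2 and 4, and 24 had the reverse. The highest reading fell on Control 1 for 103 of them.

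Heart muscle genes led this spread. Of 23 measured heart genes 14 were above background and 5 strong, but the median SD of the list was 1.21 against 0.12 over all genes, and 6 of the 15 genes of largest SD were on it. Myl2, the ventricular myosin light chain, read 9.93, 6.55, 9.94 and 6.08, an SD of 2.10. The heavy chain Myh6 read 10.10, 6.68, 9.40 and 6.35, and the atrial light chain Myl4 12.37, 10.17, 11.94 and 10.01. In each of these genes Control 1 and 3 lay above Control 2 and 4 without overlap. The sarcomere genes Actc1 (11.07 ± 1.5), Myl7 (10.72 ± 1.44), Tnnc1 (10.27 ± 1.41), Csrp3 (7.67 ± 1.86) and Ttn (7.26 ± 1.54) showed the same split. Nppa, the atrial peptide, read 7.26 and 7.66 on Control 1 and 3 and was at background on Control 2 and 4. Hand1, Hand2 and Bmp10 were not above background on any array. Among the other genotypes the list mean ran from 6.33 to 8.03, so high heart signal was not limited to Control heads. With Control 1 and 3 left out, 3 heart genes were strong in place of 5.

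Genes of other lists shared the pattern on Control 1 and 3. Meox1, Wnt2 and Spink1 are given above, and Myl1 (7.82 ± 1.84) and Acta1 (9.41, 7.04, 9.29 and 6.40), muscle contractile genes, also did. Ttr read highest on Control 1 with Control 3 next. The means over Hox paralogues 1 to 4 were 6.51, 5.68, 6.01 and 5.88, and over trunk paraxial mesoderm 5.75, 5.07, 5.61 and 5.37. In the Hox mean Control 3 lay close to Control 4, and not every member shared the split. Hoxd3 and Hoxd4 did, whereas Hoxa2 (8.31 against 7.59), Hoxb1 (7.47 against 7.00) and Hoxb2 (7.91 against 7.86) read higher on Control 4 than on Control 3. The trunk mean covers 6 genes, and Meox1 had by far the widest range among them. Scx, above background on 3 arrays, also read higher on Control 1 and 3, whereas Dll1, Tbx6, Uncx and Ripply1 did not. The trunk mean therefore reflects mainly Meox1. The amount of heart, trunk or yolk sac tissue taken with each head is not given in the labels, and its part in these values was not tested. In RNA of whole heads, more cells of a type and more RNA per cell cannot be told apart.

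**Figure D4:**
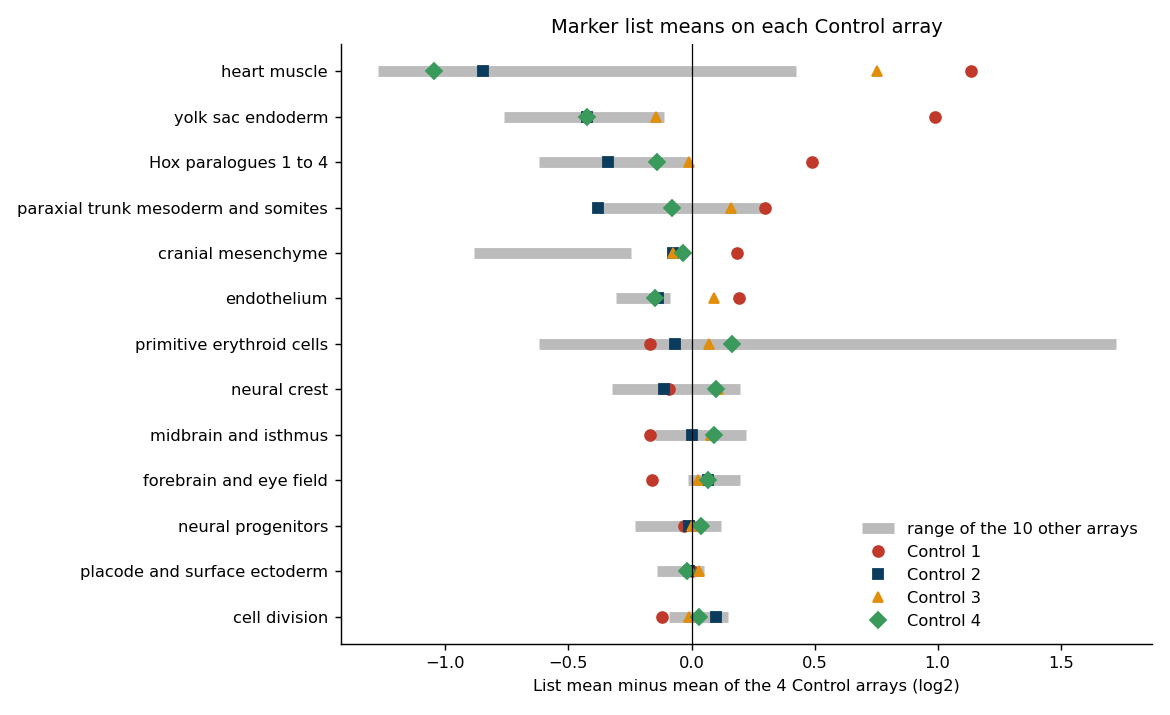
Each symbol is the mean log2 signal of a marker list on 1 Control array minus the mean of the 4 Control arrays; grey bars span the 10 arrays of the other genotypes. Control 1 and 3 lie to the right for heart muscle, Control 1 alone for yolk sac endoderm, and the symbols of neural progenitors and surface ectoderm nearly coincide.

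The remaining genes of largest SD did not follow the heart markers. Adamts9, a matrix protease, read 8.44, 8.13, 5.03 and 8.15, with Control 3 alone low, while its other probe, near background, read 4.51, 4.81, 4.73 and 4.85. Fgfr1op2 read 8.25, 8.36, 5.41 and 8.69, with the same array low, but its other probe above background on 4 of 4 arrays read 6.16, 6.68, 6.82 and 6.76. Wdr82, a subunit of a histone methyltransferase complex, read 4.97, 7.22, 4.95 and 7.76, whereas its 2 other probes above background on 4 of 4 arrays had SDs of 0.16 and 0.28. The low reading of Fgfr1op2 was therefore not repeated by its other probe. The 2 other Wdr82 probes read 5.49 and 6.06 on Control 3, above their 5.44 and 5.84 on Control 4, so they did not repeat the split of Wdr82. The other Adamts9 probe lies too near background to show a fall on Control 3. For Actc1 the second probe did repeat the split of the heart genes, with 8.94, 6.00, 8.97 and 6.18. Eif2s3y, with an SD of 1.76, was the sex-linked gene among the 15.

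**Figure D5:**
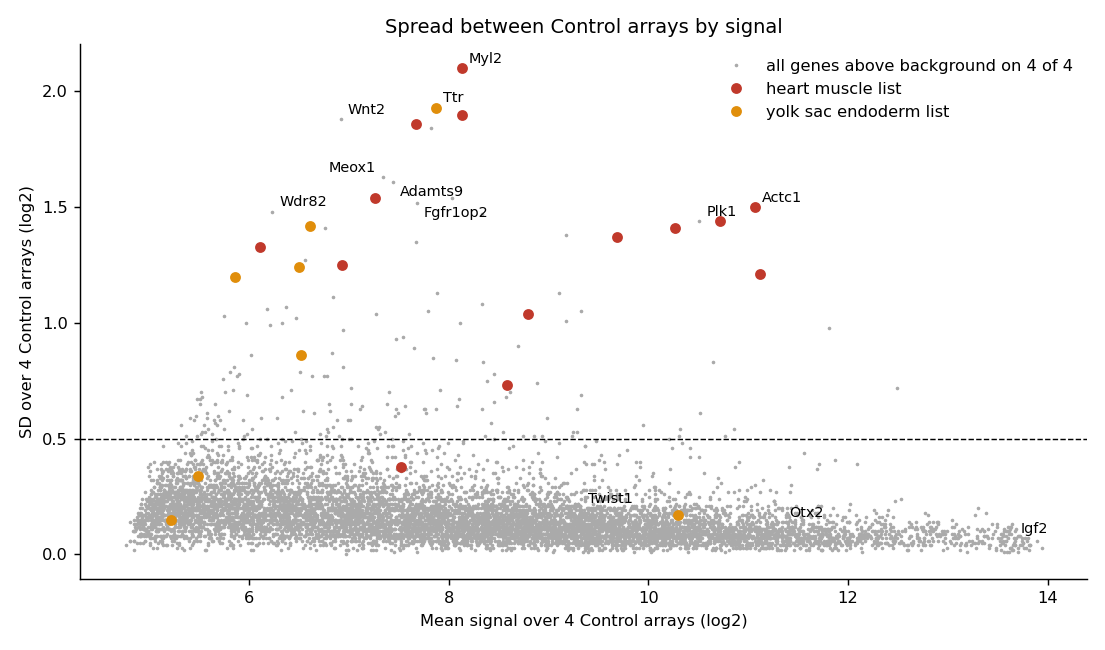
Each grey point is a gene above background on 4 of 4 Control arrays, placed by its mean log2 signal and its SD; red points are heart muscle genes and orange points yolk sac endoderm genes. The dashed line is an SD of 0.5, which 177 genes exceed, and Twist1, Otx2 and Igf2 lie well below it.

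Control heads were then compared with the mean of the other 3 genotypes, to see where the Control profile differs. Of 11386 genes tested with limma, 94 (0.826%) passed an adjusted p of 0.05, 49 higher and 45 lower in Control heads. Twist1 was first, higher by 0.98 log2 units (SE 0.09, limma adjusted p = 3.41e-05), with means of 9.32 in Control, 8.65 in CM-Het, 8.60 in Het and 7.75 in CM-CKO heads. Of the next genes, Serpinf1, a secreted serpin, was higher by 0.83 (SE 0.10), the transcription factor Ebf3 by 0.70 (SE 0.09), the scavenger receptor Scarf2 by 0.91 (SE 0.12), the proteoglycan Lum by 0.93 (SE 0.12) and the collagen Col6a1 by 1.02 (SE 0.13), each with a limma adjusted p of 0.00121. Ebf3 is on the mesenchyme list, Col6a1 on the matrix list and Lum on both, while Serpinf1 and Scarf2 are on no list. The rest of the 15 genes of smallest p, all higher in Control, were Pcolce, Itga9, Pdlim4, Cd248, Tgfbi, Vegfc, Snai2, Cbr3 and Col26a1, with differences of 0.48 to 0.87 and limma adjusted p of 0.00147 to 0.00525. In each of the 15 genes the CM-CKO mean was the lowest of the 4 genotypes, and for Lum and Vegfc the Het mean lay close to Control. Which genotype carried the difference was not tested. Lum read 6.94 in Control, 6.47 in CM-Het, 6.81 in Het and 4.75 in CM-CKO heads, Ebf3 8.28, 8.03, 8.08 and 6.62, and Vegfc 8.42, 7.91, 8.37 and 7.12. For 9 of the 15 a further probe of the gene was detected, and it was higher in Control by 0.14 to 0.81. Except for Itga9 (0.75 against 0.53), its difference was smaller than that of the probe that stood for the gene. It was 0.19 against 0.84 for Cbr3, 0.21 against 0.83 for Serpinf1 and 0.80 against 1.02 for Col6a1. The further probes were not tested.

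Among the lists, 6 of 18 tested mesenchyme genes passed, all higher in Control (Twist1, Ebf3, Lum, Cd248, Alx4 and Twist2), beside 0.43% of all genes in that direction. The list median difference was 0.51 against 0.01 over all genes. Matrix followed with 3 of 25, Col4a1, Col6a1 and Lum. The lists were chosen with earlier results of these data known, and the mesenchyme list holds Twist1, the gene altered by design. These list counts are therefore no separate support. Of 50 distinct genes tested in the forebrain, midbrain, hindbrain and neural progenitor lists 0 passed with limma, and 12 had an unadjusted p under 0.05, against 1925 of all 11386 genes tested (16.9%). Of 20 heart genes 0 passed and 2 had an unadjusted p under 0.05, beside the same 16.9% of all genes, at a list median difference of 0.80 with Control 1 and 3 far above Control 2 and 4. In all 478 distinct list genes were tested and 16 passed, 12 higher in Control, the others in that direction being Snai2, Tgfbi, Vegfc and the secreted WNT modulator Dkk3. Trh, Sall4, Igfbp5 and Pdgfa were lower in Control. The Control arrays all lie on beadchip 2 with CM-CKO 1 and 2, whereas CM-Het and Het lie on beadchip 1. Within beadchip 2, 12 of the 94 genes passed against CM-CKO alone, a comparison that uses the same Control arrays and is no separate support. The count rests on single arrays: without Control 1, 21 genes passed, and without Control 1 and 3 only Twist1 passed, while the other 14 named genes kept differences of 0.38 to 0.96.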

How the data were processed

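Total RNA of mouse embryo heads was read on Illumina bead arrays after biotin labelling, per the labels' protocols. The deposited intensities are linear and, per the file headers, not normalized; their values show no background subtraction. The deposited detection p-values did not follow the intensities on their rows (rank correlation -0.105 to -0.0946) and were put back by rank within each array; the 14 restored values of 45259 of 45281 probes occur together as a deposited row. A deposited table of log2 values equals quantile-normalized intensities within 0.0329 and served as an alternative. Which scanner and summary software were used is not stated by the labels or headers.

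Intensities were background corrected and normalized with neqc (limma 3.58.1, R 4.3.3, offset 16) over all 14 arrays. Of the probes 18 carry several gene symbols and 10378 none, and these were not named; 34807 symbols matched the RefSeq table. The brightest probe stood for a gene. Means, SDs and ranks of the 4 Control arrays are descriptions without a test. Control heads were compared with the mean of the other 3 genotypes with limma (lmFit and eBayes) over genes detected on at least 3 arrays, with Benjamini-Hochberg adjustment. In simulated data on 11386 genes this fit recovered 95% of shifts of 1 log2 unit and 73% of shifts of 0.5, with 10 false calls. The number of arrays limits the precision, and a p-value covers no more than the spread between the arrays at hand.

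Values are given for Twist1, the 20 strongest genes, up to 4 of highest mean in each of 45 marker lists among genes above background on 4 of 4 arrays, the 15 of largest SD, the 15 of smallest p, the sex-linked genes and the members of lists described in full. The lists hold 713 distinct genes, of which 661 were measured; the others were not used here. Members and lists were chosen with earlier results of these data known. Alternatives changed the detection limit, the probe, the normalization, the filter, the blocks and the arrays used.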

Additional observations from a re-analysis of the deposited data

Results flagged for a closer look

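Over 195 named genes and 45 list means, 11 genes and 2 list means had 1 Control array far from the other 3, measured as the gap to the nearest array divided by the range of all 4. Chance alone sets apart about 1 in 20 groups, and 5.64% of the genes were.

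In 2 genes the gap was wide on the log2 scale. Adamts9 read 5.03 on Control 3 against 8.13 to 8.44 on the others (ratio 0.91). Its other probe read 4.73 on Control 3 and 4.51 to 4.85 on the others, too near background to show a fall. The probe of Fgfr1op2 read 5.41 on Control 3 against 8.25 to 8.69 (ratio 0.865), while its other probe read 6.82 on Control 3 and 6.16 to 6.76 on the others. The yolk sac gene Amn read 7.81 on Control 1 against 6.02 to 6.13 (ratio 0.938).

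The other gaps were small. Control 1 was lowest for Rplp1 at 13.89 (ratio 1.00) and for Pdgfa at 10.33 (ratio 0.834), and highest for Plac1 at 6.25 (ratio 0.841). Control 2 was lowest for Ybx1 at 13.71 (ratio 0.939) and for Igfbp5 at 11.93 (ratio 0.83). Control 4 was lowest for Egfl7 at 11.18 (ratio 0.901) and highest for Fgf8 at 9.04 (ratio 0.977) and Id1 at 10.31 (ratio 0.923). The cranial mesenchyme mean was highest on Control 1 at 7.61 (ratio 0.853), and the mean over endothelin, chemokine and neurotrophic genes was lowest on Control 2 at 6.91 (ratio 0.985).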

How the results depend on the processing

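The number of genes above background in Control heads (9376) and of distinct list members above background (391) stayed within 1.5 times under every alternative run, with 6663 and 281 for the median probe of each gene and 7261 and 296 when the p-values were left in the deposited order. Counts of single lists were less stable: of 45 lists, 22 moved by more than 1.5 times with the deposited order, 18 with the median probe and 13 with detection on at least 1 array. The number of strong list members, 133, was 76 with the top 5% of probes and 79 with the median probe of each gene. Genes with an SD over 0.5 numbered 177, against 68 in the deposited log2 values and 101 with an offset of 50, by construction fewer because both raise the floor of dim probes. The 94 genes that differed between Control and the other genotypes became 412 with beadchip as a random block (correlation -0.0585) and 13 within beadchip 2, where fewer samples are compared; a fixed beadchip term could not be fitted. Leaving out 1 array gave 21 (without Control 1) to 107 genes (without CM-CKO 2); the count fell by more than 1.5 times without CM-Het 1 (36), Control 3 or Het 1 (46 each), CM-Het 3 (49), CM-CKO 4 (50), CM-CKO 3 (55), Control 4 (56), and Het 2 or Het 3 (60 each). It was 1 without Control 1 and 3, a setting chosen after seeing the data. The cause of these moves was not tested. Replicate numbers did not pair the arrays: same-number correlations of deviations ran from -0.24 to 0.25, and with the replicate block 41 genes were called, 34 of them among the 94. Probes at background limit every statement on absence.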
